A study of Mus musculus with 6 samples.

Results

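The transcripts of the mitochondrial genome were followed in lung group 2 innate lymphoid cells (ILC2s). They were every row of the gene count table placed on chromosome M, which were 29 of 22554 rows. By their annotated type, 13 were protein-coding, 2 were ribosomal RNA (rRNA) genes and 14 were transfer RNA (tRNA) genes. GENCODE M21 lists 37 genes on this chromosome, 22 of them tRNAs, and the 8 other tRNA genes were not analysed here. The start, end and strand of all 29 rows were those of GENCODE M21 on mm10.

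Wild-type BALB/cByJ mice received 3 intranasal doses of 0.5 µg rmIL-33, and their sorted lung ILC2s were cultured for 24 h at 50000 cells per mL with rmIL-2 and rmIL-7, each at 10 ng/mL. The sample labels give an age of 8 weeks, and the methods name female mice. CD200-Fc, the ligand of the inhibitory receptor CD200R joined to an antibody Fc part, was added to 3 samples (replicates 35, 36 and 38), and the isotype control protein to the other 3 (replicates 16, 17 and 18). The methods for sequencing name these 2 cytokines alone, while figure legends for the same cells also name rmIL-33 in the culture, so whether rmIL-33 was present there is not settled. All 6 samples had thus seen rmIL-33 in the animal, and rmIL-2 and rmIL-7 in culture. Neither the labels nor the methods tie a sample to a mouse or a culture. A p-value given here therefore reflects sample-to-sample spread that could be technical. The libraries were made from 10 ng of RNA, and the sources used here do not state whether rRNA was removed or poly(A) RNA was selected.

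The mitochondrial genome is a small circle that is read from both strands into long transcripts. These are cut at the tRNAs that lie between the other genes, which frees the mRNAs, the rRNAs and the tRNAs together. The mRNAs encode subunits of complexes I, III, IV and V of oxidative phosphorylation, and the 12S and 16S rRNAs, from mt-Rnr1 and mt-Rnr2, form the small and large subunits of the mitochondrial ribosome. Every other protein that the organelle needs for its transcription and translation is encoded in the nucleus.

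The 6 libraries held 20096555 to 33321709 counts. The level of a gene is given in CPM (counts per 1000000 of the TMM-scaled library), and differences between groups are log2 fold changes of CD200-Fc over isotype from edgeR's quasi-likelihood test with its standard error (SE). Calls were made at 0.05 on p-values adjusted by Benjamini-Hochberg over all 14124 genes tested. All 10 ILC2 markers were present, with a summed level of 10564 to 10743 CPM in isotype and 11154 to 11287 CPM in CD200-Fc samples. They did not move together. Il2ra, Klrg1, Icos and Arg1 were higher in every CD200-Fc sample than in every isotype sample. Rora, Il13 and, only just, Gata3 were lower, and for Il1rl1, Il7r and Il5 the groups overlapped. Of 6 T cell markers 5 had a row, of which Cd4 was at 0 in every library, and the sum was 25.9 to 29.7 CPM in isotype and 24.9 to 28.6 CPM in CD200-Fc samples. The macrophage markers reached 5.62 CPM in isotype and 16.5 CPM in CD200-Fc samples, the latter in replicate 38. The 4 epithelial markers summed to 25.5 to 26.0 CPM in isotype and 30.01 to 35.46 CPM in CD200-Fc samples, nearly all of it from Epcam, while Sftpc and Scgb1a1 were at 0 throughout. Of 4 eosinophil markers only Ccr3 had a row, with 4.67 to 5.08 CPM in isotype and 5.66 to 10.5 CPM in CD200-Fc samples. The part of these levels in the results was not tested. In bulk samples, less RNA per cell and a different mixture of cells cannot be told apart.

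Chromosome M took close to 1% of all counts. Its share was 0.981%, 0.833% and 1.06% in isotype replicates 16, 17 and 18, and 0.743%, 0.936% and 0.958% in CD200-Fc replicates 35, 36 and 38. The groups overlapped, and the lowest share of each came from replicates 17 and 35. The mean was 0.958% ± 0.116 (SD, n = 3) with isotype and 0.879% ± 0.118 (SD, n = 3) with CD200-Fc. The exact two-sided permutation test gave p = 0.4, where 0.1 is the smallest p that 3 against 3 allow. Counting error was small beside this spread, since the 95% Wilson interval of a library's share reached no more than 0.0045 percentage points to either side. PCR reads are not independent molecules, so such intervals cover counting error only. The 13 mRNAs held 63.7% to 72.0% of chromosome M counts, and the 2 rRNAs held 27.9% to 36.2%.

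Among the mitochondrial transcripts, 12S rRNA fell with CD200-Fc. Of the 18 chromosome M genes with enough counts to be tested, which were all 13 mRNAs, both rRNAs and 3 tRNAs, mt-Rnr1 was the only one called. Over all genes tested by edgeR, 2.07% were called, 0.595% lower and 1.48% higher. DESeq2 called mt-Rnr1 and mt-Nd2 lower, and over its genes it called 9.88%. None of the 18 was called higher by either tool, although DESeq2 gave an adjusted p for only 15 of them. At an unadjusted edgeR p under 0.05, 4 were lower (mt-Rnr1, mt-Nd2, mt-Atp6 and mt-Tq), against 7.69% of all genes tested, and none was higher, against 9.43%. The levels of 5 of the 18 genes were lower in every CD200-Fc sample than in every isotype sample, and of none were they higher, against 11.2% and 11.6% of all genes. Among both the 4 and the 5, mt-Atp6 shares reads with a copy on chromosome 1, and with that copy added its groups overlapped and its unadjusted p was 0.102.

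The called gene, mt-Rnr1, spans chrM:70-1024 (mm10, plus strand, 955 bases) and yields the 12S rRNA of the small mitochondrial ribosomal subunit. Its ends are shown because it carries the one called difference, in lower case from the GENCODE M21 transcript.
mt-Rnr1 first 80 bases: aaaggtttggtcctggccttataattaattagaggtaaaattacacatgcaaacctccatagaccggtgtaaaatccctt
mt-Rnr1 last 80 bases: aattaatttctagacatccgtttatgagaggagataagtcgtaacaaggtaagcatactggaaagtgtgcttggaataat

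The level of mt-Rnr1 was 333.9, 343.2 and 383.8 CPM in isotype replicates 16, 17 and 18. It was 244.1, 234.4 and 248.4 CPM in CD200-Fc replicates 35, 36 and 38. The groups did not overlap, and the CD200-Fc samples lay close together at 242.3 ± 7.19 CPM (SD, n = 3), below 353.6 ± 26.5 CPM (SD, n = 3) with isotype. By edgeR the log2 fold change was -0.55 (SE 0.059, adjusted p = 0.000338). It was called under each of the 20 other settings tried, including the loss of any 1 library, with log2 fold changes from -0.58 to -0.48. The adjusted p ranged from 2.33e-15 with DESeq2 to 0.00743 without CD200-Fc replicate 35. Per 1000 mitochondrial mRNA counts, a measure chosen after these values were seen and so not tested, mt-Rnr1 held 47.7, 58.8 and 56.8 counts with isotype and 45.5, 35.4 and 36.2 counts with CD200-Fc. On that scale too the groups did not overlap, although CD200-Fc replicate 35 lay just under isotype replicate 16. Adding the chromosome 1 copies to the mRNA counts gave 34.3, 42.1 and 40.5 with isotype and 32.8, 25.2 and 26.2 with CD200-Fc. No other row of the count table had a transcript at least 95% identical to mt-Rnr1 over 200 bases.

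The other rRNA, the 16S rRNA from mt-Rnr2 (chrM:1094-2675, plus strand), had the highest count of all members and the widest spread of the 2 rRNAs. Its level was 2420, 2097 and 3458 CPM in isotype replicates 16, 17 and 18. It was 1874, 2636 and 2414 CPM in CD200-Fc replicates 35, 36 and 38. Isotype replicate 18 stood above all others, and the remaining 5 libraries were mixed between the groups. The log2 fold change was -0.20 (SE 0.14, edgeR adjusted p = 0.515), and without isotype replicate 18 it was 0.04.

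Both rRNAs are cut from the same precursor, so their ratio within a library is free of library scaling. The ratio of mt-Rnr2 to mt-Rnr1 counts was 7.25, 6.11 and 9.01 in isotype replicates 16, 17 and 18, and 7.67, 11.2 and 9.72 in CD200-Fc replicates 35, 36 and 38. The ratio of CD200-Fc replicate 35 lay among the isotype values, so the groups overlapped. The difference of the mean log2 ratios was 0.36 (exact two-sided permutation test, p = 0.2). The fall of mt-Rnr1 was thus not shown to differ from the change of mt-Rnr2. The ratio of rRNA to mRNA counts was 0.393, 0.418 and 0.569 with isotype and 0.395, 0.434 and 0.388 with CD200-Fc (exact two-sided permutation test on the log2 ratio, p = 0.6). Adding the chromosome 1 copies of the mRNAs, described below, gave 0.283, 0.299 and 0.405 with isotype and 0.284, 0.308 and 0.281 with CD200-Fc.

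**Figure D1:**
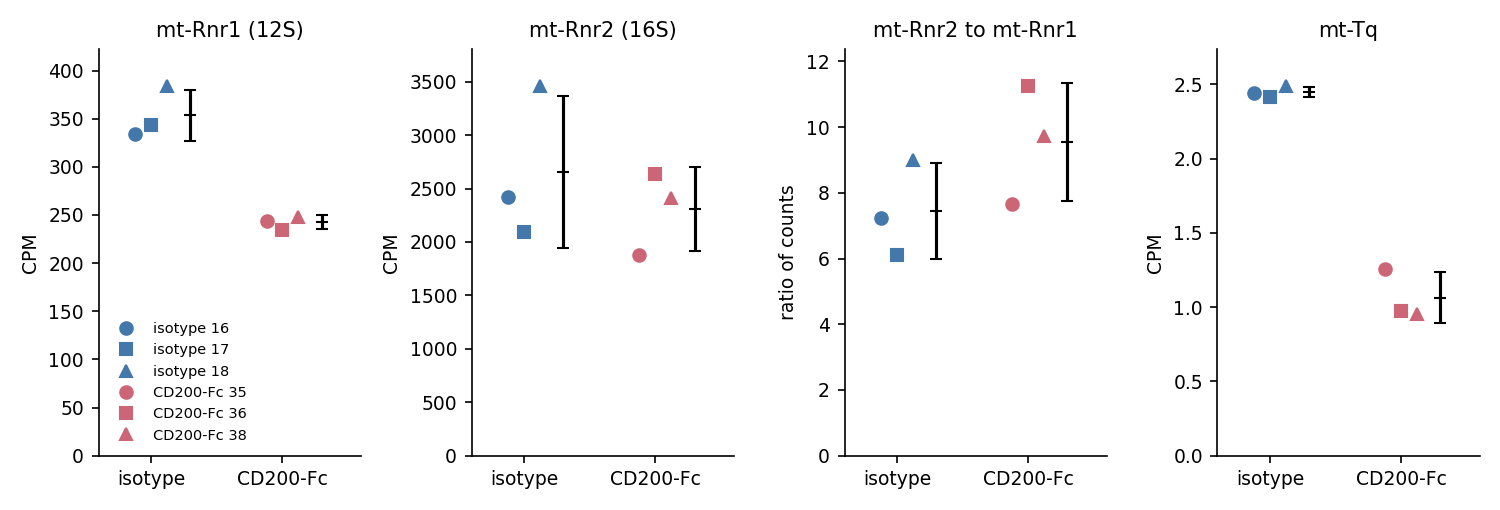
Levels in CPM of mt-Rnr1, mt-Rnr2 and mt-Tq and the ratio of mt-Rnr2 to mt-Rnr1 counts in each library, with the mean and SD of each group of 3 as a bar beside the points and every axis starting at 0. The 3 CD200-Fc samples lie below the 3 isotype samples for mt-Rnr1 and mt-Tq, while the groups overlap for mt-Rnr2 and for the ratio.

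The 13 mRNAs were close to even between the groups. None was called by edgeR, at an unadjusted p under 0.05 2 were lower, and DESeq2 called 1 (mt-Nd2). Their median log2 fold change was -0.08, beside -0.0035 over all tested genes. It was below 0 for 10 of the 13, against 50.8% of all genes, although mt-Co2, mt-Cytb and mt-Nd3 turned positive without one or another library, and the 3 positive ones (mt-Co1, mt-Co3 and mt-Nd4l) turned negative under some settings. The members are cut from shared precursors and are not independent of each other.

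**Figure D2:**
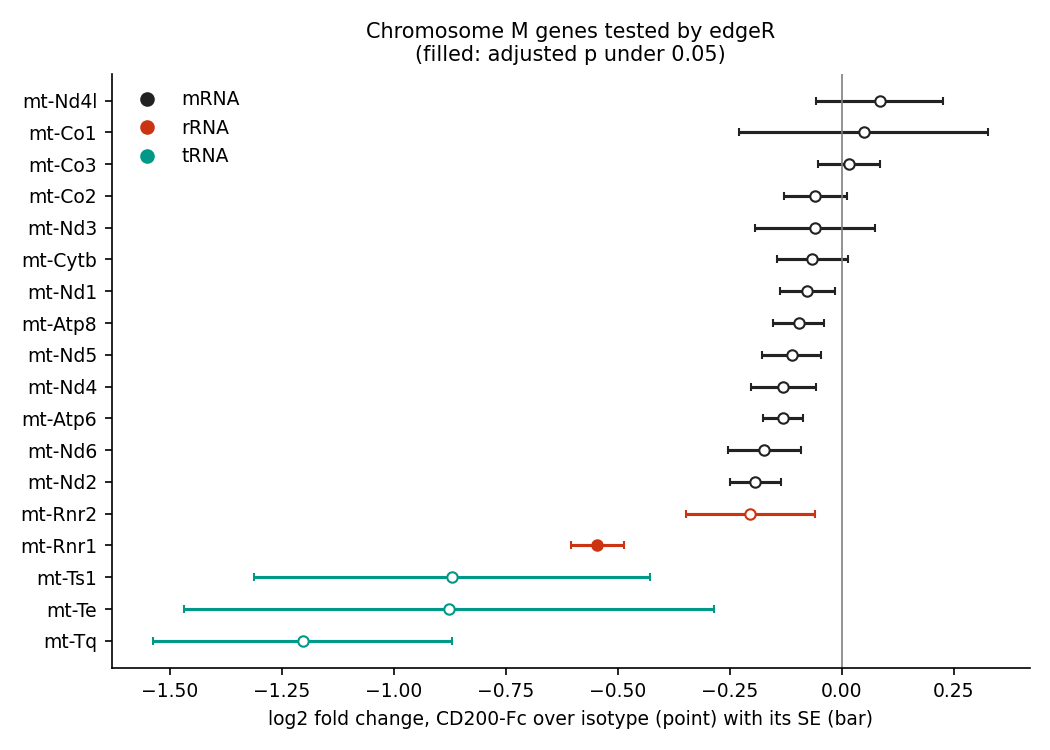
Log2 fold change of CD200-Fc over isotype (points) with its SE (bars) for the 18 chromosome M genes tested by edgeR, coloured by type. Only mt-Rnr1, at -0.55, is filled for an adjusted p under 0.05, and the mRNAs lie between -0.19 and 0.08.

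Complex I, the NADH dehydrogenase that feeds electrons into the chain, takes 7 of its subunits from these mRNAs. Of them mt-Nd2 (chrM:3914-4951) had the smallest p. Its level was 292.3, 271.1 and 287.8 CPM with isotype and 230.7, 257.0 and 257.1 CPM with CD200-Fc, so that every CD200-Fc sample lay below every isotype sample. The log2 fold change was -0.19 (SE 0.058, edgeR adjusted p = 0.0998). DESeq2 called it at an adjusted p of 0.0259, a tool that called 3.5% of its genes lower.

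The only mRNA on the minus strand, mt-Nd6 (chrM:13552-14070), had 74.7, 73.2 and 77.3 CPM with isotype and 59.4, 67.1 and 73.3 CPM with CD200-Fc. CD200-Fc replicate 38 lay within the isotype values. Its log2 fold change was -0.17 (SE 0.081, edgeR adjusted p = 0.298). As a share of mitochondrial mRNA counts it was 1.07%, 1.25% and 1.144% with isotype and 1.11%, 1.02% and 1.07% with CD200-Fc (exact two-sided permutation test, p = 0.2), so the groups overlapped. Adding the chromosome 1 copies to the mRNA counts gave 0.769%, 0.897% and 0.815% with isotype and 0.798%, 0.721% and 0.773% with CD200-Fc. The gene mt-Nd6 overlaps the end of mt-Nd5 on the other strand by 14 bases. Use of strand in the counting was not stated, so reads there cannot be told apart. Over the rest of mt-Nd6, reads from the other strand may also be counted. Its share is thus no measure of the balance of the strands. The log2 fold changes of mt-Nd1, mt-Nd4 and mt-Nd5 were -0.08, -0.13 and -0.11, with edgeR adjusted p-values of 0.578, 0.394 and 0.411. The rows mt-Nd3 and mt-Nd4l, both at or below 23.6 CPM in every library, had log2 fold changes of -0.06 and 0.08 with the widest SEs of complex I (0.13 and 0.14).

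Complex V, the ATP synthase, has 2 mitochondrial subunits, whose mRNAs share a transcript. For mt-Atp6 (chrM:7927-8607) the level was 769.1, 749.3 and 768.9 CPM with isotype and 669.0, 722.3 and 696.9 CPM with CD200-Fc. The groups did not overlap, and the log2 fold change was -0.13 (SE 0.045, edgeR adjusted p = 0.145). For mt-Atp8 (chrM:7766-7969) it was 240.1, 228.2 and 232.5 CPM with isotype and 204.5, 223.6 and 227.5 CPM with CD200-Fc, with a log2 fold change of -0.10 (SE 0.056, edgeR adjusted p = 0.413). In these rows both mRNAs were lower in all 3 CD200-Fc samples, and neither passed the test. With the counts of its chromosome 1 copy added, mt-Atp6 had 1440, 1371 and 1403 CPM with isotype and 1217, 1396 and 1351 CPM with CD200-Fc, and the groups overlapped. Their frames overlap by 43 bases at chrM:7927-7969, where a read can belong to either. The stretch is shown to make that plain, with the bases that lie in both genes in capitals.
mt-Atp8 and mt-Atp6: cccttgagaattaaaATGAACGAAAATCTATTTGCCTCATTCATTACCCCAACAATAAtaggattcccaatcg

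Complex III has a single mitochondrial subunit, cytochrome b from mt-Cytb, with 1057, 862.9 and 931.2 CPM with isotype and 813.2, 895.1 and 1018 CPM with CD200-Fc. The groups overlapped (log2 fold change -0.07, SE 0.079, edgeR adjusted p = 0.736).

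Complex IV, the cytochrome c oxidase, takes its 3 core subunits from mt-Co1, mt-Co2 and mt-Co3, and mt-Co1 was the mRNA that differed most between libraries. Its level was 1040, 611.1 and 1099 CPM in isotype replicates 16, 17 and 18. It was 447.0, 1173 and 1225 CPM in CD200-Fc replicates 35, 36 and 38. One library of each group was low, isotype replicate 17 and CD200-Fc replicate 35, and the highest level was 2.74 times the lowest. The log2 fold change was 0.05 (SE 0.28, edgeR adjusted p = 0.953). With both low libraries left out, an alternative chosen after these values were seen, the levels of the other 4 libraries were 1040 and 1099 CPM against 1173 and 1225 CPM. With the chromosome 1 copy of mt-Co1 added they were 1445 and 1567 CPM against 1543 and 1592 CPM and overlapped. Without these 2 libraries mt-Rnr1 was still called (adjusted p = 0.00709).

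For the other 12 mRNAs the highest library was 1.15 to 1.42 times the lowest. These same libraries, isotype replicate 17 and CD200-Fc replicate 35, were the lowest pair of the 6 for 7 of the 18 genes tested, against 5.3% of all genes. The 7 were mt-Co1, mt-Co2, mt-Co3, mt-Cytb, mt-Nd1, mt-Nd4 and mt-Rnr2. The pair was picked after the levels of mt-Co1 were seen, and these genes share precursors, so this count is a description and not a test. Isotype replicate 17 and CD200-Fc replicate 35 held 20171798 and 25589406 counts, within the range of the 6 libraries. The cause of their low levels was not tested. For mt-Co2 and mt-Co3 the log2 fold changes were -0.06 and 0.02 (edgeR adjusted p-values of 0.732 and 0.934).

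**Figure D3:**
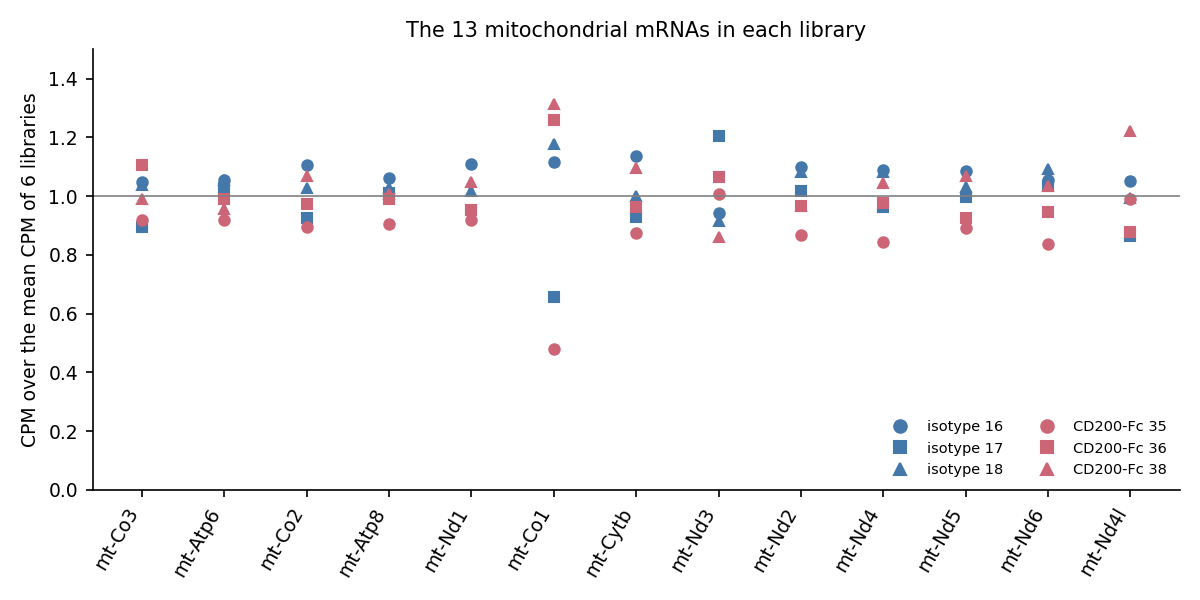
Level of each of the 13 mitochondrial mRNAs in each library, as its CPM over the mean CPM of the 6 libraries, with the grey line at that mean. For mt-Co1, isotype replicate 17 and CD200-Fc replicate 35 lie far below the other 4 libraries, while the other mRNAs stay near the mean.

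The make-up of the mRNA pool by complex overlapped between the groups. Complex I mRNAs took 29.9% ± 1.31 of mitochondrial mRNA counts with isotype and 28.9% ± 2.09 with CD200-Fc (SD, n = 3 each). Complex III took 14.6% ± 0.690 and 14.5% ± 0.856, complex IV 40.2% ± 2.79 and 41.9% ± 4.04, and complex V 15.3% ± 1.24 and 14.7% ± 1.45. The exact two-sided permutation tests gave p = 0.4, 1, 0.5 and 0.5 in that order, and the smallest of these 4 values was 0.667 after Benjamini-Hochberg adjustment. The share of complex IV ranged from 37.1% to 45.1% over the libraries and was lowest in isotype replicate 17 and CD200-Fc replicate 35, where mt-Co1 was low.

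For 6 of the 13 mRNAs, part of the counts stood in a nuclear row. In the mm10 reference, a stretch of mitochondrial sequence is inserted in chromosome 1. There 6 unprocessed pseudogenes copy mt-Nd4l, mt-Nd3, mt-Co3, mt-Atp6, mt-Co2 and the end of mt-Co1. Together these pseudogenes span chr1:24612407-24616197 (3791 bases), and the ends of the insert itself were not located. In 4 of the 6 the aligned bases held no mismatch, so a read within them matches both places. The 2 others differed from the mitochondrial gene by 1 base each, A1066T for mt-Co1 against Gm29216 and T3C for mt-Nd3 against Gm28438, counted from 1 at the first base of the mitochondrial gene. Whether the BALB/cByJ mice used here carry the insert or these bases was not examined. The 2 sites are shown because in the reference these bases are all that tells the copies apart in the aligned part. The differing base is in capitals, in the direction of the gene.
mt-Co1: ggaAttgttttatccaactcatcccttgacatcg
Gm29216: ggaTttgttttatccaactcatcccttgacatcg
mt-Nd3: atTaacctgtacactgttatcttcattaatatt
Gm28438: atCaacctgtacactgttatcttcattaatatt

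The quantification by expectation maximization divided these reads by estimate. Of the counts of mt-Co3 and Gm28437 together, between 49.997% and 50.024% stood in mt-Co3. The mitochondrial gene kept 51.6% to 55.0% for mt-Atp6, 60.6% to 63.1% for mt-Co2, 69.1% to 77.0% for mt-Co1, 40.0% to 52.7% for mt-Nd4l and 15.3% to 21.4% for mt-Nd3. The counts of 7 mRNA rows were not whole (tolerance 0.01) in 2 or more libraries, and those of both rRNAs were.

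The share kept by mt-Co1 was 72.0%, 69.1% and 70.2% with isotype and 75.4%, 76.0% and 77.0% with CD200-Fc. All 3 CD200-Fc samples were higher, a difference that was not tested. For mt-Co3 all 3 were lower by a far smaller margin (50.010%, 50.024% and 50.009% against 49.997%, 50.002% and 49.997%). For mt-Atp6, mt-Co2, mt-Nd3 and mt-Nd4l the groups overlapped. Since Gm29216 copies only the end of mt-Co1, the share of mt-Co1 also depends on reads from the rest of that gene. When each copy was added to its gene, also chosen after seeing the data, the log2 fold changes became -0.06 for mt-Co1, -0.09 for mt-Atp6, -0.11 for mt-Nd3 and -0.05 for mt-Nd4l. Those of mt-Co1 and mt-Nd4l thereby changed sign, and none of the 6 sums was called (edgeR adjusted p-values from 0.400 to 0.935). The chromosome M share with the copies added was 1.25%, 1.07% and 1.33% with isotype and 0.9503%, 1.20% and 1.22% with CD200-Fc (exact two-sided permutation test, p = 0.5).

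**Figure D4:**
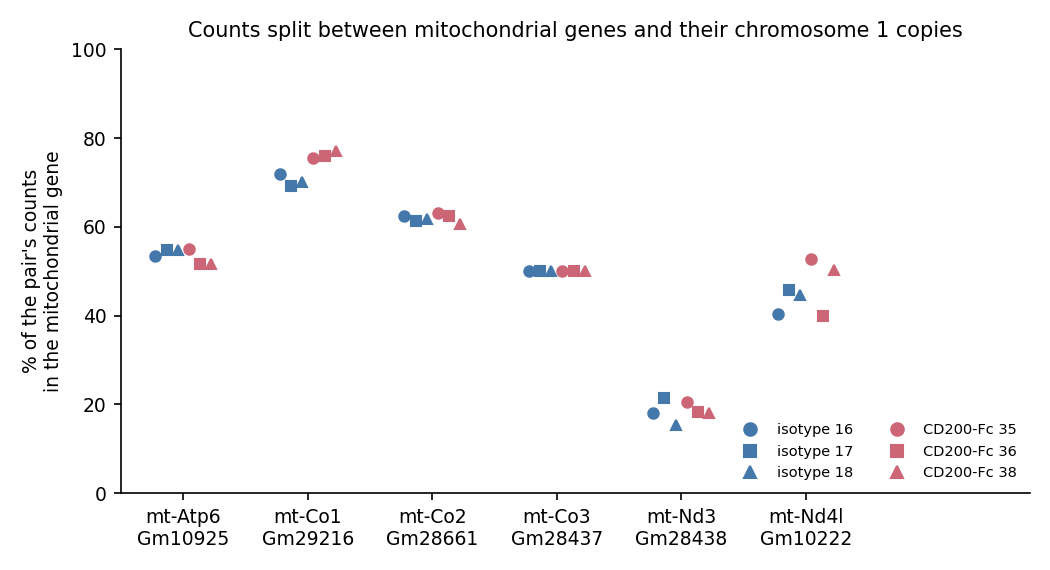
Percent of the summed counts of each mitochondrial gene and its chromosome 1 copy that stood in the mitochondrial gene, for each library. The share is near 50% in every library for mt-Co3, lowest for mt-Nd3 and higher in all 3 CD200-Fc samples than in the isotype samples for mt-Co1.

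Per length, and with the copies added, the levels of the mRNAs and rRNAs differed widely. The mean over 6 libraries was 2635 CPM per kb for mt-Co3, 2001 for mt-Atp6, 1603 for mt-Co2, 1570 for mt-Rnr2 and 1108 for mt-Atp8. It was 859.7 CPM per kb for mt-Nd1, 822.4 for mt-Co1 and 812.5 for mt-Cytb. The lowest were mt-Nd6 with 136.5 and mt-Nd4l with 125.3 CPM per kb. In between, mt-Rnr1 had 312.0, mt-Nd3 303.4, mt-Nd2 256.3, mt-Nd4 243.5 and mt-Nd5 189.4 CPM per kb. Some neighbours in this order did not keep it in every library, since mt-Co2 exceeded mt-Rnr2 in 4 of 6 libraries, mt-Nd1 exceeded mt-Co1 in 3, mt-Co1 exceeded mt-Cytb in 4 and mt-Rnr1 exceeded mt-Nd3 in 3, which were the isotype samples. Likewise mt-Nd2 exceeded mt-Nd4, and mt-Nd6 exceeded mt-Nd4l, in 5 of 6 libraries. The 16S rRNA stood above the 12S rRNA in all libraries. Whether rRNA was removed or poly(A) RNA was selected was not stated, and either could change how much of each rRNA was recovered. The place of the rRNAs in this order is therefore one of counts, not of amounts in the cells.

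**Figure D5:**
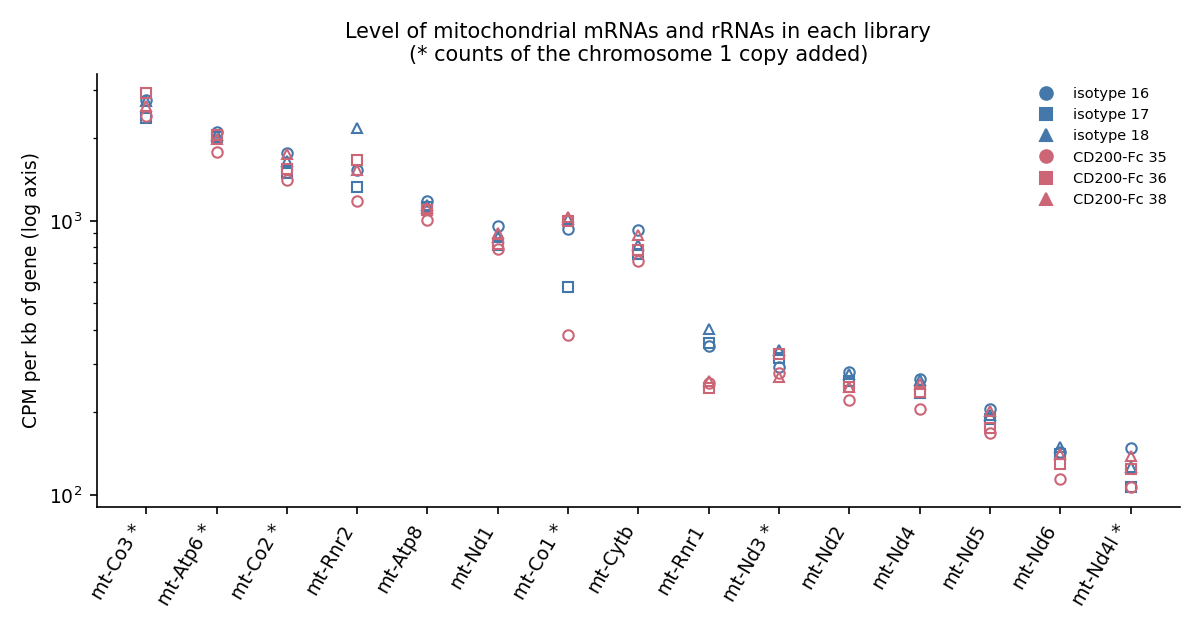
Level of the 13 mRNAs and 2 rRNAs in CPM per kb of gene in each library on a log axis, ordered by their mean, with the counts of the chromosome 1 copy added where marked. The levels run from 2635 CPM per kb for mt-Co3 to 125.3 for mt-Nd4l. The groups separate for mt-Rnr1 and, by smaller margins, for mt-Nd2 and mt-Atp8.

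The tRNA rows held few counts. Of the 14, 12 had 12 counts or fewer in every library, and the highest count of all was 76. The tRNA share of chromosome M counts was 0.0825%, 0.0768% and 0.0731% with isotype and 0.0458%, 0.0426% and 0.0526% with CD200-Fc. All 3 CD200-Fc samples lay below the isotype samples (exact two-sided permutation, p = 0.1, which this design cannot go below). The rows mt-Tq and mt-Ts1 together held 54.0% to 73.7% of the tRNA counts of a library. Both are genes of the minus strand, and use of strand in the counting was not stated. Their counts may thus include reads from transcripts of the plus strand. Their sequences are shown because nearly all that is said of tRNAs rests on them, with the bases that overlap a gene of the other strand in capitals (mt-Ti for mt-Tq, mt-Co1 for mt-Ts1).
mt-Tq: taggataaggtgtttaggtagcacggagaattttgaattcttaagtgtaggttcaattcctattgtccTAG
mt-Ts1: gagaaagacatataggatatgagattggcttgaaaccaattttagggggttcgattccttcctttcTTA

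The glutamine tRNA mt-Tq (chrM:3772-3842, minus strand) had 57, 49 and 50 counts in isotype replicates 16, 17 and 18, and 32, 32 and 23 counts in CD200-Fc replicates 35, 36 and 38. Its level was 2.44, 2.42 and 2.49 CPM with isotype and 1.26, 0.973 and 0.953 CPM with CD200-Fc, so the groups did not overlap. The log2 fold change was -1.20 (SE 0.33), the lowest of the 18 genes tested, but the edgeR adjusted p was 0.0772. Over the other settings the adjusted p ranged from 0.0375 with a minimum of 10 counts in every library to 0.261, and DESeq2 gave no adjusted p. The serine tRNA mt-Ts1 (chrM:6870-6938, minus strand), which ends against mt-Co1, had 76, 32 and 65 counts with isotype and 15, 51 and 55 counts with CD200-Fc. As for mt-Co1, isotype replicate 17 and CD200-Fc replicate 35 had the fewest counts of their groups (log2 fold change -0.87, SE 0.44, edgeR adjusted p = 0.337). The glutamate tRNA mt-Te had 11, 12 and 9 counts with isotype and 4, 7 and 11 with CD200-Fc (log2 fold change -0.88, SE 0.59, edgeR adjusted p = 0.493). For the leucine tRNA mt-Tl1, which was not tested, the counts were 10, 12 and 5 with isotype and 9, 10 and 5 with CD200-Fc.

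RNAs that stay in the nucleus were counted beside the mitochondrial ones as a sign of how the RNA was recovered. Malat1 had 625.1, 645.0 and 796.3 CPM with isotype and 439.4, 510.6 and 632.4 CPM with CD200-Fc, so the groups overlapped. The sum of 4 such RNAs was 911.1 to 1096 CPM with isotype and 712.4 to 952.1 CPM with CD200-Fc. Their part in the level of mt-Rnr1 was not tested.

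Few of the nuclear genes that make, process and translate mitochondrial RNA passed the test. Of 103 such genes in 7 lists, 102 were tested and 1 was called higher by edgeR and none lower, against 1.48% and 0.595% of all genes. DESeq2 also called 1 higher and none lower, of 94 with an adjusted p, and over all its genes it called 9.88%. At an unadjusted edgeR p under 0.05, 4 were higher and 6 were lower, against 9.43% and 7.69% of all genes. Their median log2 fold change was 0.0015, beside -0.0035 over all genes. The called gene was Pnpt1, on chromosome 11, which encodes the mitochondrial polynucleotide phosphorylase that degrades RNA. Its level was 57.3, 49.4 and 54.0 CPM with isotype and 68.2, 68.7 and 65.3 CPM with CD200-Fc, with no overlap. The log2 fold change was 0.33 (SE 0.078, edgeR adjusted p = 0.0448), and the call was lost without any 1 library except isotype replicate 16 (adjusted p from 0.0401 to 0.161).

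Of the 8 transcription genes, none was called, and the smallest p-values were those of Top1mt, the mitochondrial topoisomerase (log2 fold change -0.26, edgeR adjusted p = 0.337), and Tefm, the elongation factor (-0.25, 0.532). Among the 30 genes of RNA processing, modification and decay, Nsun4, a methyltransferase that acts on 12S rRNA, came next after Pnpt1. It had 15.4, 17.2 and 13.2 CPM with isotype and 12.7, 11.5 and 10.9 CPM with CD200-Fc (log2 fold change -0.39, SE 0.14, edgeR adjusted p = 0.167). Every CD200-Fc sample was below every isotype sample, but the difference did not pass.

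None was called among the 14 genes of tRNA modification, the 17 tRNA synthetases or the 12 translation factors. There Mto1 and Gfm1 had log2 fold changes of 0.23 and 0.17, and Qtrt1 and Sars2 of -0.32 and -0.21, with edgeR adjusted p-values of 0.244, 0.277, 0.213 and 0.344 in that order. Iars2 and Tufm had 0.15 and -0.12 (adjusted p-values of 0.301 and 0.371). For genome copying, the DNA polymerase gene Polg and the single-strand binding protein gene Ssbp1 had log2 fold changes of 0.15 and -0.16 (edgeR adjusted p-values of 0.213 and 0.257). Of the 9 nuclear regulators tested, Esrra and Yy1 had the smallest p-values (-0.27 and -0.20, edgeR adjusted p-values of 0.227 and 0.300).

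The nuclear partners of the mitochondrial subunits and rRNAs were read the same way. Of 74 nuclear subunits of complexes I, III, IV and V, 73 had a log2 fold change below 0, against 50.8% of all genes, with a median of -0.13. EdgeR called 2 of them lower, against 0.595% of all genes, namely Ndufa3 of complex I (-0.31, adjusted p = 0.0222) and Atp5g1 of complex V (-0.26, adjusted p = 0.0459). Both calls were lost without any 1 library except isotype replicate 16, with adjusted p-values up to 0.104 and 0.164. DESeq2 called 22 of the 74 lower, against 3.5% of its genes. At an unadjusted edgeR p under 0.05, 36 of the 74 were lower and 0 were higher, against 7.69% and 9.43% of all genes. Members of such a list can vary together, so these counts are a description and not a test. Next in their complexes were Ndufs7 (-0.20) and Atp5e (-0.24), and for complexes III and IV Uqcrh (-0.20), Uqcrq (-0.19), Cox6b1 (-0.24) and Cox6a1 (-0.19), with edgeR adjusted p-values from 0.0602 to 0.0916. Of the 30 proteins of the small mitochondrial ribosomal subunit, which holds the 12S rRNA, and the 49 of the large one, none was called by edgeR. Their median log2 fold changes were -0.10 and -0.12, and at an unadjusted p under 0.05, 7 and 14 were lower and 0 and 1 were higher, against 7.69% and 9.43% of all genes.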

How the data were processed

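Per the labels and the paper's methods, the authors demultiplexed reads with bcl2fastq 2.17.1.14, aligned them by STAR 2.5.3a (build mm10) and ran expectation maximization in Partek (Genomics Suite 7.0). They deposited expected counts of 22554 genes, not normalized, and a normalized signal of 17194 genes, in its values the deposited expected count plus 1 times 1 factor per library. Annotation release and use of strand were not stated.

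Expected counts were rounded, and the 14124 genes kept by filterByExpr were scaled by TMM and tested with edgeR 4.0.16 (glmQLFit, R 4.3.3) without covariates. Alternatives were limma 3.58.1, DESeq2 1.42.0, other scalings and filters, unrounded counts and the loss of each library. Shares and ratios were compared by exact permutation (SciPy 1.17.1), and copies were sought with BLAST 2.17.0 among GENCODE M21 transcripts. In a simulated CD200-Fc against isotype comparison of 14124 genes, the test found 82% of 100 genes altered 1.5-fold and made 11 false calls among 13924 others. Altered genes had at least 2 in mean log2 CPM, above the level of the tested tRNAs. Their spread followed the fitted trend over level alone, so genes with a wider spread of their own, such as mt-Co1, were not simulated. A 1.5-fold change is also larger than that of any mitochondrial mRNA here, and smaller changes were not simulated. Named are all mRNAs and rRNAs, the 4 tRNAs of highest mean CPM, called genes and otherwise the 2 smallest p-values of each nuclear list. Nuclear ribosomal proteins are given as counts. Members, lists and tests were chosen with earlier results of these data known.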

Additional observations from a re-analysis of the deposited data

How the results depend on the processing

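The call of mt-Rnr1 held under all 20 alternatives. The number of chromosome M genes called by edgeR was 1, and it was 2 with DESeq2 (mt-Nd2 added), with at least 10 counts in every library and with limma-trend on the normalized signal at a pseudocount of 1 (mt-Tq added in both). It was 1 without any 1 library. The number of nuclear genes of mitochondrial gene expression called fell from 1 to 0 with upper quartile scaling, total count scaling, limma-trend at a pseudocount of 0.1 and with isotype replicate 17 and CD200-Fc replicate 35 both left out, and ranged from 0 to 1 with 1 library left out. The median log2 fold change of the 13 mRNAs lay between -0.13 and -0.04 throughout.

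Signs turned only for differences that had not passed the test. The log2 fold change of mt-Co1 was -0.030 by limma-voom, -0.23 with quality weights, -0.06 by limma-trend at either pseudocount (-0.064 and -0.065) and -0.06 with the chromosome 1 copies added. That of mt-Co3 was -0.0044 with upper quartile scaling, -0.031 with quality weights and -0.0086 by limma-trend at either pseudocount. That of mt-Nd4l was -0.048 with the copies added. With that pair left out, mt-Nd3 had 0.054 and Tefm 0.020. With counts divided by gene length, the share of complex III differed by 0.0060 percentage points, against -0.047 without that division. Leaving out 1 library gave log2 fold changes of -0.17 to 0.39 for mt-Co1, -0.12 to 0.0070 for mt-Co2, -0.058 to 0.083 for mt-Co3, -0.15 to 0.021 for mt-Cytb, -0.13 to 0.078 for mt-Nd3, -0.052 to 0.19 for mt-Nd4l and -0.35 to 0.035 for mt-Rnr2, and differences of -0.434 to 0.436 percentage points for complex III and -1.44 to 0.066 for complex V. The cause was not tested.

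No paired analysis was possible because the groups share no replicate numbers. The copies added and the pair of libraries left out were chosen after seeing the data. At 76 counts or fewer, tRNA rows allow no firm statement, and reads of 6 mRNAs shared with chromosome 1 cannot be placed.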
